A study of Homo sapiens with 27 samples.

Results

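MHC class II molecules are the surface receptors with which B cells show peptides to CD4+ T cells. The 10 genes described here are the transactivator CIITA, the invariant chain CD74, the α and β chains of the classical molecules (HLA-DRA, HLA-DRB1, HLA-DPA1, HLA-DPB1, HLA-DQA1, HLA-DQB1) and both chains of the peptide exchange factor HLA-DM (HLA-DMA, HLA-DMB). They were taken by name from the 27115 genes in each file, and all 10 were present. RNA had been sequenced from 3 established diffuse large B-cell lymphoma (DLBCL) lines 8 days after lentiviral infection with a short hairpin RNA (shRNA). Karpas422 stood for the OXPHOS type, OCI-LY1 (labelled OCILy1) for the germinal center B-cell type and HBL1 for the activated B-cell type. Each line received a scramble control (shCtr, labelled shCTRL) or 1 of 2 hairpins against SIRT3, a mitochondrial deacylase, named shSIRT3-1 and shSIRT3-2. With 3 replicates in each of 9 groups there were 27 libraries. All groups, controls included, carried a lentiviral vector with puromycin resistance. Each type is represented by 1 line. The labels do not say whether replicates were separate infections, so p-values measure the spread between these libraries, which may be technical.

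Class II genes are switched on as a group. RFX5, RFXANK and RFXAP (the RFX complex), NFYA, NFYB and NFYC (the NF-Y complex) and CREB1 bind short boxes upstream of each gene, and CIITA, which does not bind DNA itself, joins them and sets the level of transcription. B cells make CIITA constitutively and lose it when they turn into plasma cells, where PRDM1 (Blimp-1) represses it. The invariant chain escorts newly made class II molecules to endosomes, and HLA-DM there exchanges its last fragment for other peptides.

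The upstream regions of 5 genes, for HLA-DR, HLA-DP, HLA-DM and the invariant chain, are printed as examples, to show matches to the cores of these boxes. The sequences are the 250 bases before the start of the gene in RefSeq on GRCh38.p14, read on the strand of the gene. Capitals mark 2 words on either strand. One is the Y box core ATTGG, the NF-Y site, which reads CCAAT from the other side. The other is the X box core AGCAAC, whose reverse complement is also in capitals. Of these 5 regions only those of HLA-DRB1 and HLA-DMA hold AGCAAC, and boxes that depart from the exact words are not marked. The regions are chr6:32589849-32590098 (HLA-DRB1, minus strand), chr6:32953098-32953347 (HLA-DMA, minus strand), chr6:32941029-32941278 (HLA-DMB, minus strand), chr6:33075740-33075989 (HLA-DPB1, plus strand) and chr5:150412911-150413160 (CD74, minus strand).
HLA-DRB1: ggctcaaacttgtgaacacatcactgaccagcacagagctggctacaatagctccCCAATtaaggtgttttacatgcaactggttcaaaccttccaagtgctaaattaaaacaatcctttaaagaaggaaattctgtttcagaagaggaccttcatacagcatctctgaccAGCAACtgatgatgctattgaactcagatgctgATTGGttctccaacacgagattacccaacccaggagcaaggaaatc
HLA-DMA: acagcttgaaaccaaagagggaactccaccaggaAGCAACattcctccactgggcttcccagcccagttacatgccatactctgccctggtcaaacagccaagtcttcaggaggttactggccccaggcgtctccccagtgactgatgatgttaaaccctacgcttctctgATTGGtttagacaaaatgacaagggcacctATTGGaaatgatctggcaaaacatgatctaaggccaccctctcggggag
HLA-DMB: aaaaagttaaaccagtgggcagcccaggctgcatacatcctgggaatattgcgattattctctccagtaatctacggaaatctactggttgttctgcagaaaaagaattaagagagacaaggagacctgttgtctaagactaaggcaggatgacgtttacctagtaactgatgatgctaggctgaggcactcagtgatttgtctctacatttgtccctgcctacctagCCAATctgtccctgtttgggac
HLA-DPB1: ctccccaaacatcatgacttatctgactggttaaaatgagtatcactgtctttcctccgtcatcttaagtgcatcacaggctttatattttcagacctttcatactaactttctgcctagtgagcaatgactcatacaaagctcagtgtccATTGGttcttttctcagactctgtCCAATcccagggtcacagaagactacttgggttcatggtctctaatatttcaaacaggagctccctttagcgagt
CD74: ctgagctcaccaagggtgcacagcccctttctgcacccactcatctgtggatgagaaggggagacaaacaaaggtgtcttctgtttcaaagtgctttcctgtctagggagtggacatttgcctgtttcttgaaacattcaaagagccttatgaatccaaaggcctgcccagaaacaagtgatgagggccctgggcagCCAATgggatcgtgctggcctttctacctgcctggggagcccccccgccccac

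RefSeq windows were matched for 8 of the 10 genes, from 250 bases before to 50 bases after the start, with 9 windows because HLA-DPA1 had 2. CIITA and HLA-DRA were not matched. ATTGG on either strand was found in the windows of 7 of these genes, in all but HLA-DPA1, and in 34.6% of all 35116 windows of that length. AGCAAC was found for 3 genes, HLA-DRB1, HLA-DMA and HLA-DPA1, and in 12.8% of all windows. In HLA-DRB1 the AGCAAC match lay 79 to 74 bases before the start and an ATTGG match 46 to 42 bases before it. In HLA-DMA the ATTGG matches lay 79 to 75 and 49 to 45 bases before the start, and the AGCAAC match 216 to 211 bases before it. The longer word TAGCAAC was in none of the 9 windows and in 2.9% of all. These are matches of letters, not measured binding.

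CIITA lies on chromosome 16 of hg19 (10960079 to 11036878, plus strand) and CD74 on chromosome 5 (149781200 to 149792532, minus strand). The HLA genes lie on chromosome 6 between HLA-DRA, which starts at 32407655, and HLA-DPB1, which ends at 33057473. The sources used here do not say that strand was kept in the libraries or used in counting, so reads in overlaps with genes on the other strand may not be told apart. Such overlaps cover 13578 bases of CIITA (with DEXI), 4786 bases shared by HLA-DPA1 and HLA-DPB1 (31 of them in exons of both), 850 bases of HLA-DQB1 and 501 bases of HLA-DMA (with BRD2). Reads of HLA-DRB1, HLA-DQA1 and HLA-DQB1 can be split with their near-identical copies HLA-DRB5, HLA-DQA2 and HLA-DQB2, so these levels are uncertain.

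Values are CPM, reads scaled by the total that the authors divided by. Between 28694398 and 53405456 reads per library fell on genes. All 5 B-cell markers described here (MS4A1, CD79A, CD79B, CD22 and BLK) reached 1 CPM in each of the 9 groups, and the 4 T-cell markers summed to at most 0.103 CPM in OCI-LY1 and HBL1 libraries and to 18.5 to 43.3 CPM in Karpas422. The targeted gene was lower in both knockdown groups of every line. SIRT3 (chromosome 11, 215030 to 236931, minus strand) was 9.99, 9.14 and 10.2 CPM in Karpas422 with shCtr, 2.44, 2.79 and 2.57 CPM with shSIRT3-1 and 6.24, 5.32 and 4.41 CPM with shSIRT3-2. In OCI-LY1 it was 10.7, 13.8 and 9.98 CPM, then 2.23, 1.06 and 1.62 CPM, then 6.17, 4.06 and 6.03 CPM in the same order of hairpins. In HBL1 it was 13.5, 14.2 and 16.4 CPM, then 2.13, 2.39 and 2.00 CPM, then 2.84, 3.12 and 3.82 CPM. The knockdown was deeper with shSIRT3-1: over the 3 lines shSIRT3-2 left 1.08 ± 0.18 (SE) more SIRT3 on the log2 scale (adjusted p = 4.57e-05). The response of SIRT3 to the hairpins differed between the lines in limma's interaction test (adjusted p = 0.00291), as did that of 41.8% of all genes tested.

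Some libraries stood apart. In Karpas422 shSIRT3-2 replicate 3, each of the 10 genes was at its lowest of the 9 Karpas422 libraries, and PRDM1 was 46.9 CPM against 5.70 and 4.12 CPM in the other replicates of that group. OCI-LY1 shSIRT3-1 replicate 1 held traces of HBL1-type transcripts. Genes high in every HBL1 library and nearly silent in the other OCI-LY1 libraries numbered 25, and this library had them at 0.77% of their HBL1 level. The same choice made for each other OCI-LY1 library gave 5 genes, at 0.00619% to 0.243%. HBL1 shSIRT3-1 replicate 1 likewise had 26 Karpas422-type genes at 0.35% of their Karpas422 level, where other HBL1 libraries had 9 or 10 at 0.0283% to 0.327%. Class II results that lost or gained a call without these libraries are given both ways, and the part of such reads in the results was not tested.

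In the control cells, class II genes were strongly expressed in Karpas422 and HBL1 and nearly silent in OCI-LY1, which kept CD74 and lower levels of CIITA and HLA-DM. Per kilobase of coding sequence, the highest level in Karpas422 was that of CD74, at 998 ± 66.6 CPM (SD, n = 3). HLA-DRA followed at 369 ± 9.1, then HLA-DPA1 at 234 ± 19.8, HLA-DMA at 115 ± 6.56 and HLA-DRB1 at 110 ± 9.04, the last pair with overlapping libraries. HLA-DQA1 (94.7 ± 1.4) and HLA-DQB1 (92.1 ± 1.34) also overlapped, as did HLA-DPB1 (59.5 ± 6.98) and HLA-DMB (54.7 ± 9.66). CIITA was lowest, at 14.9 ± 2.23 CPM per coding kilobase. In HBL1 the order began with CD74 (601 ± 54.1), HLA-DRA (198 ± 46.8) and HLA-DMA (103 ± 24.9). HLA-DPA1 (57.9 ± 13.7), HLA-DRB1 (47.8 ± 5.78), HLA-DQB1 (40.6 ± 5.74) and HLA-DMB (35.9 ± 11.4) followed, each overlapping its neighbour in the order. HLA-DQA1 (23.6 ± 3.96), HLA-DPB1 (16.8 ± 3.15) and CIITA (12.8 ± 3.07) came last, with HLA-DPB1 and CIITA overlapping. The order depended on the length used. Per kilobase of the whole transcript, HLA-DPB1 in Karpas422 was 11.5 (10.1 to 12.8) and lay below HLA-DMB at 32.0 (25.6 to 36.3), with no overlap, and HLA-DMA and HLA-DRB1 no longer overlapped. In HBL1 HLA-DRB1 (31.2) then lay above HLA-DPA1 (26.5) and HLA-DMB above HLA-DQB1 (19.8).

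In OCI-LY1, CD74 stood at 332 ± 66.1 CPM per coding kilobase, HLA-DMA at 11.4 ± 2.35, HLA-DMB at 2.60 ± 0.517 and CIITA at 2.14 ± 0.644 (SD, n = 3). The 6 genes of DR, DP and DQ together had 9, 71 and 14 reads in the shCtr libraries of OCI-LY1, against 73415 to 80853 reads in Karpas422 and 16692 to 33506 reads in HBL1. HLA-DRA had 1, 31 and 6 reads in the control libraries of OCI-LY1, and its mean CPM was 2494-fold higher in Karpas422 and 1337-fold higher in HBL1, or 8029-fold and 4305-fold without shCtr replicate 2 of OCI-LY1. HLA-DPB1 had 1 read there. The mean CPM of CIITA was 6.95-fold higher in Karpas422 and 5.997-fold higher in HBL1 than in OCI-LY1. For CD74 the ratios were 3.001 and 1.81, for HLA-DMA 10.1 and 9.02, and for HLA-DMB 21.1 and 13.8. CIITA, CD74, HLA-DMA and HLA-DMB, which passed the filter on low values in all 3 lines, were called higher in Karpas422 than in OCI-LY1 and in HBL1 than in OCI-LY1. The 6 DR, DP and DQ genes were called too, but they passed the filter through Karpas422 and HBL1, so their calls were fixed by it. Here and below, a call needed limma's adjusted p (Benjamini-Hochberg, over every gene tested) to be under 0.05 and the change to exceed 1.5-fold. Of all 13076 genes tested, 28.3% were called higher in Karpas422 and 29.7% higher in HBL1 in these comparisons. For the DR, DP and DQ genes the fitted value in OCI-LY1 is set mainly by the 0.1 CPM added before taking logs, so only the ratios of means are given.

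HBL1 was called lower than Karpas422 for 6 of the 10 genes, where 28.7% of all genes were. On the log2 scale the differences were −2.04 ± 0.41 (SE) for HLA-DPA1, −2.01 ± 0.23 for HLA-DQA1, −1.83 ± 0.34 for HLA-DPB1, −1.21 for HLA-DRB1, −1.19 for HLA-DQB1 and −0.73 for CD74. The mean CPM of HLA-DPA1 was 4.05-fold higher in Karpas422, and that of HLA-DQA1 4.01-fold. Reads of each line were aligned to hg19, and the part of HLA allele differences between the lines in these values was not tested. CIITA was 50.4 ± 7.57 CPM in Karpas422 and 43.5 ± 10.4 CPM in HBL1, and its log2 difference was −0.23 (95% interval −0.84 to 0.39). HLA-DRA (−0.92), HLA-DMB (−0.63) and HLA-DMA (−0.19) were not called either. In a fit of the 9 control libraries alone, HLA-DRA and HLA-DMB were called as well, with adjusted p = 0.0395 and 0.0314. HLA-DRA was also called without OCI-LY1 shSIRT3-1 replicate 1 (adjusted p = 0.00849) and HLA-DMB without Karpas422 shSIRT3-2 replicate 3 (adjusted p = 0.0394), at the same values. With a pseudocount of 0.01 the calls of HLA-DPA1 (adjusted p = 0.0601) and HLA-DRB1 (adjusted p = 0.0649) were lost, and without replicate 1 of every group that of CD74 (adjusted p = 0.0978).

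**Figure D1:**
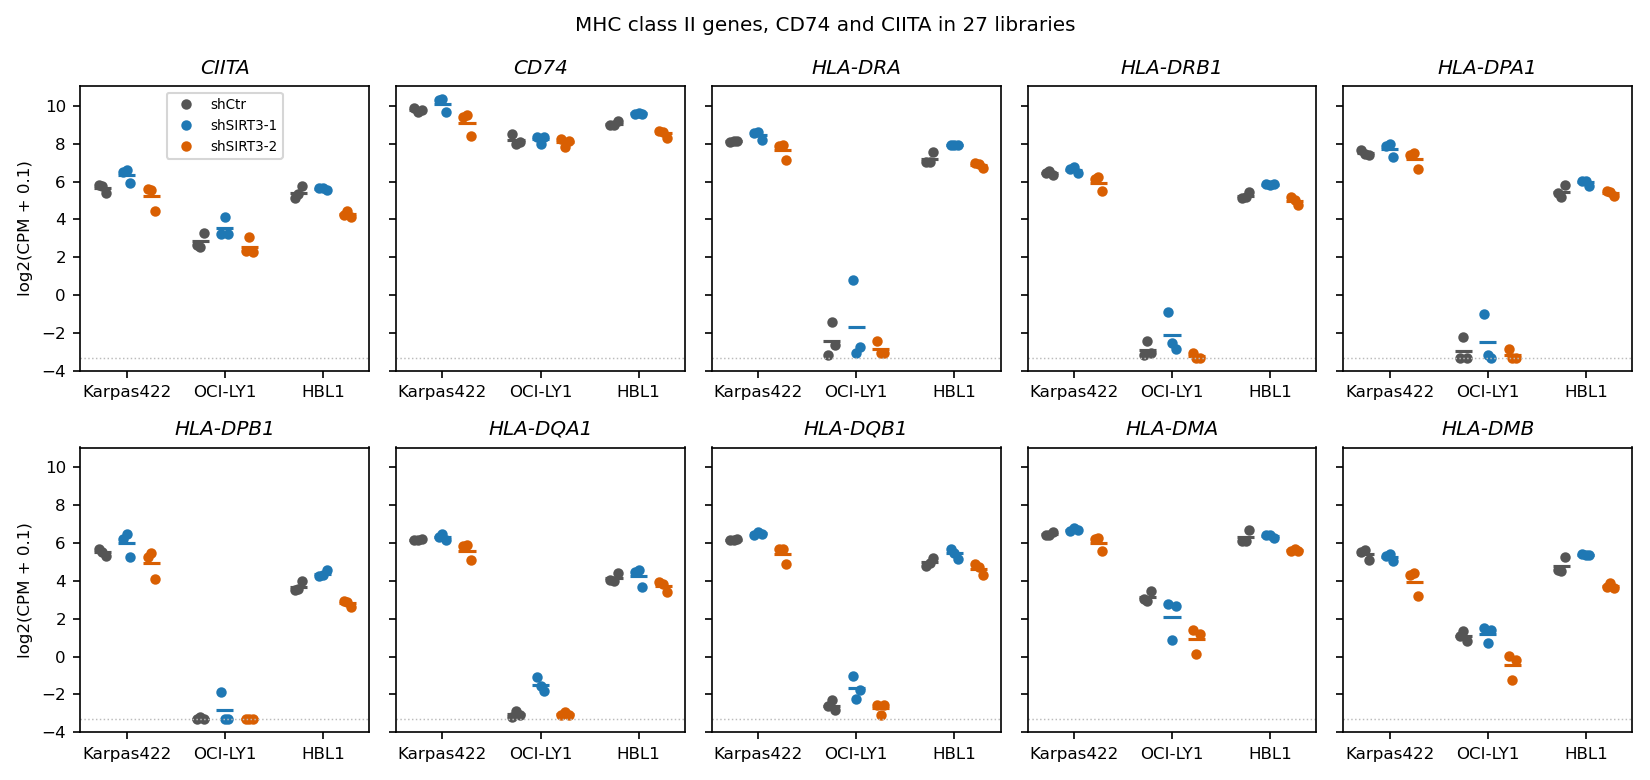
Level of each gene in the 27 libraries as log2(CPM + 0.1), with 1 point per library, a bar at the mean of the log values of each group of 3, and shCtr in grey, shSIRT3-1 in blue and shSIRT3-2 in orange. The dotted line is the value of a gene with no reads. In Karpas422 and HBL1 the orange points of most genes lie below the blue ones, and the DR, DP and DQ genes of OCI-LY1 lie near the dotted line, up to 1.64 CPM for HLA-DRA in a single shSIRT3-1 library.

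Against shCtr, the fold changes of most class II genes lay above 0 with shSIRT3-1 and below 0 with shSIRT3-2, and few of them passed the test. CIITA in Karpas422 was 55.5, 54.0 and 41.7 CPM with shCtr, 90.2, 98.1 and 60.1 CPM with shSIRT3-1 and 49.0, 47.7 and 22.0 CPM with shSIRT3-2. All shSIRT3-1 libraries lay above all controls, and the shSIRT3-2 libraries overlapped the controls. In HBL1 CIITA was 35.1, 40.3 and 55.1 CPM with shCtr, 51.4, 50.5 and 46.9 CPM with shSIRT3-1 and 18.8, 21.4 and 17.6 CPM with shSIRT3-2. Here the shSIRT3-1 libraries lay within the range of the controls, and all shSIRT3-2 libraries lay below them. In OCI-LY1 it was 6.20, 5.80 and 9.76 CPM, then 9.44, 17.7 and 9.24 CPM, then 4.89, 8.35 and 4.78 CPM, and both knockdown groups overlapped the controls.

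Over the 3 lines, 1 of the 10 genes was called higher with shSIRT3-1 and none lower, where 3.92% of all genes were called higher and 9.09% lower. That gene was HLA-DQA1, with a log2 fold change of 0.60 ± 0.18 (SE, adjusted p = 0.0127). The call rested on OCI-LY1, where HLA-DQA1 was 0.0103, 0.0346 and 0.0199 CPM with shCtr and 0.372, 0.247 and 0.181 CPM with shSIRT3-1. Without that line the value was 0.11 (adjusted p = 0.601). It was also lost without any of the 6 OCI-LY1 libraries with shCtr or shSIRT3-1, at 0.47 (adjusted p = 0.0282) without shSIRT3-1 replicate 1. The number of class II genes called higher was 4 without HBL1 shCtr replicate 3, 3 without Karpas422 shSIRT3-1 replicate 3, and 0 to 2 when any other single library was left out. The fold changes of 9 of the 10 genes were above 0, with a median of 0.526 on the log2 scale against −0.047 for all genes tested. That median was 0.333 without OCI-LY1 shSIRT3-1 replicate 1, 0.280 without replicate 1 of every group and 0.310 with a pseudocount of 1. CIITA (0.54 ± 0.18, adjusted p = 0.0178), HLA-DQB1 (0.57 ± 0.15, adjusted p = 0.00376), HLA-DPB1 (0.54, adjusted p = 0.0413) and HLA-DRB1 (0.52 ± 0.18, adjusted p = 0.0241) had an adjusted p under 0.05 with a fold under 1.5. Without OCI-LY1 shSIRT3-1 replicate 1, HLA-DRB1 was at 0.33 (adjusted p = 0.0263), HLA-DRA moved from 0.60 to 0.25 and HLA-DPA1 from 0.38 to 0.17. HLA-DMA was at −0.26 ± 0.25 (SE), and 0.14 without OCI-LY1.

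With shSIRT3-2, 3 of the 10 genes were called lower over the 3 lines and none higher, against 10.2% of all genes lower and 3.29% higher. HLA-DMB fell by 1.35 on the log2 scale (SE 0.18, adjusted p = 3.53e-06), HLA-DMA by 1.14 (SE 0.25, adjusted p = 0.000789) and CIITA by 0.62 (SE 0.18, adjusted p = 0.00744). All 10 fold changes were below 0, with a median of −0.425 against −0.034 for all genes (−0.290 without replicate 3 of every group). The call of CIITA, a 1.54-fold change, was lost without HBL1 (−0.35, adjusted p = 0.242) and without replicate 3 of every group (−0.33, adjusted p = 0.129). It was also lost, with a fold under 1.5 and an adjusted p still under 0.05, when any of 5 single libraries was left out. These were Karpas422 shSIRT3-2 replicate 3 (−0.53), OCI-LY1 shCtr replicate 3 (−0.58), HBL1 shCtr replicate 3 (−0.53) and HBL1 shSIRT3-2 replicates 1 (−0.58) and 3 (−0.57). Without OCI-LY1 HLA-DMA lost its call, at −0.58 and a fold under 1.5, CD74 (−0.59, adjusted p = 0.00899) and HLA-DPB1 (−0.72, adjusted p = 0.0169) gained one, and 4 genes were called.

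The hairpins were compared directly, since both target SIRT3. Over the 3 lines, 9 of the 10 genes were called lower with shSIRT3-2 than with shSIRT3-1, against 6.05% of all genes tested, and none was called higher, against 5.27%. The median difference was −0.959 on the log2 scale, and that of all genes was 0. HLA-DMB differed most, by −1.54 ± 0.18 (SE, adjusted p = 5.99e-07), a 2.90-fold lower level. CIITA differed by −1.16 ± 0.18 (adjusted p = 2.24e-05), a 2.23-fold lower level, and HLA-DQB1 by −0.99 ± 0.15 (adjusted p = 1.99e-05). The remaining calls were HLA-DPB1 (−1.03), HLA-DRA (−1.02), HLA-DQA1 (−0.93), HLA-DRB1 (−0.88), HLA-DMA (−0.88) and CD74 (−0.75). Several of these were lost under alternatives. HLA-DRA was not called with a pseudocount of 0.01 (adjusted p = 0.0741), without Karpas422 (adjusted p = 0.0834), without HBL1 (adjusted p = 0.139) or without replicate 2 or 3 of every group (adjusted p = 0.0548 and 0.0781). HLA-DMA was not called without HBL1 (adjusted p = 0.0558) or without replicate 1 or 3 of every group (adjusted p = 0.0784 and 0.094), and HLA-DPB1 not without HBL1 (adjusted p = 0.0521). With a pseudocount of 1 HLA-DRB1 (−0.57) and HLA-DQA1 (−0.50) had folds under 1.5. HLA-DPA1 differed by −0.57 ± 0.22 (adjusted p = 0.047), a fold of 1.49 that misses the threshold.

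The 6 DR, DP and DQ genes passed the filter on low values through Karpas422 and HBL1. Without OCI-LY1, 9 of the 10 genes were again called lower with shSIRT3-2 than with shSIRT3-1. The differences were then −1.48 for HLA-DMB, −1.30 for HLA-DPB1, −1.24 for CIITA, −1.04 for CD74, −0.95 for HLA-DQB1, −0.94 for HLA-DRA, −0.76 for HLA-DRB1, −0.72 for HLA-DMA and −0.62 for HLA-DQA1. Leaving out Karpas422 shSIRT3-2 replicate 3, OCI-LY1 shSIRT3-1 replicate 1 or HBL1 shSIRT3-1 replicate 1 also left 9 calls each, against 6 without HBL1, 7 with a pseudocount of 1 or without replicate 3 of every group, and 8 without Karpas422, with a pseudocount of 0.01 or with DESeq2. HLA-DRA moved most without the OCI-LY1 library, to −0.67.

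In Karpas422, all 10 genes had lower CPM with shSIRT3-2 than with shSIRT3-1 at each of the 3 replicate numbers, as did 27.4% of all genes tested in that line. CD74 was 943, 825 and 889 CPM with shCtr, 1280, 1324 and 823 CPM with shSIRT3-1 and 678, 729 and 337 CPM with shSIRT3-2. The shSIRT3-2 libraries lay below all others, and the shSIRT3-1 libraries overlapped the controls through replicate 3. HLA-DRA, the α chain of HLA-DR, was 273, 284 and 287 CPM with shCtr, 381, 399 and 296 CPM with shSIRT3-1 and 235, 242 and 143 CPM with shSIRT3-2, and its 3 groups did not overlap. HLA-DQB1 was 71.7, 71.4 and 73.3 CPM, then 87.5, 97.0 and 89.5 CPM, then 50.8, 50.6 and 29.6 CPM, again without overlap. HLA-DMB was 46.0, 48.9 and 34.5 CPM, then 40.4, 42.1 and 33.5 CPM, then 19.7, 20.99 and 9.08 CPM. For HLA-DMB the shSIRT3-1 libraries overlapped the controls, and the shSIRT3-2 libraries lay below both.

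Against shCtr, no class II gene was called higher with shSIRT3-1 in Karpas422 (limma; 1 at an unadjusted p under 0.05, CIITA; edgeR 0, DESeq2 1), where 4.45% of all genes were. CIITA was at 0.70 ± 0.30 (SE, adjusted p = 0.0976). With replicate numbers entered as a block its SE was 0.144 and its adjusted p = 0.00705, and without shSIRT3-2 replicate 3 its adjusted p was 0.0144. With shSIRT3-2, HLA-DMB (−1.45 ± 0.28, adjusted p = 0.00477) and HLA-DQB1 (−0.77 ± 0.18, adjusted p = 0.0106) were called lower, 2 of 10 against 9.44% of all genes. Without shSIRT3-2 replicate 3 only HLA-DMB was called (−1.06), HLA-DQB1 was at −0.51, CD74 at −0.33, HLA-DPB1 at −0.155, HLA-DPA1 at −0.05 and CIITA at −0.05. Without shSIRT3-2 replicate 2 there were 5 calls.

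Between the hairpins, 8 of 10 genes were called lower with shSIRT3-2 in Karpas422, against 4.67% of all genes. The values were −1.30 ± 0.28 for HLA-DMB (adjusted p = 0.0118), −1.12 ± 0.30 for CIITA (adjusted p = 0.0251), −1.10 ± 0.18 for HLA-DQB1 (adjusted p = 0.00416), −1.02 ± 0.29 for CD74 (adjusted p = 0.031) and −0.82 ± 0.20 for HLA-DRA (adjusted p = 0.0166). HLA-DQA1 (−0.73), HLA-DMA (−0.70) and HLA-DRB1 (−0.67) completed the calls. The same 8 genes had libraries that did not overlap, against 16.7% of all genes. HLA-DPB1 (−1.05 ± 0.37, adjusted p = 0.0658) was not called, though it was with the replicate block (adjusted p = 0.00753), with DESeq2 (adjusted p = 0.0414) and in the group-means fit (adjusted p = 0.0345), and HLA-DPA1 (−0.50 ± 0.23) had an adjusted p of 0.136. In the group-means fit, which takes 1 spread from all 27 libraries, HLA-DRA (adjusted p = 0.377), HLA-DRB1 (adjusted p = 0.15) and HLA-DMA (adjusted p = 0.172) lost their calls, and CD74 lost its call with no filter (adjusted p = 0.0606) and with quantile normalization (adjusted p = 0.0715). The count depended on single libraries. It was 3 without shSIRT3-2 replicate 3 (CIITA, HLA-DQB1 and HLA-DMB, at −0.74, −0.85 and −0.92), where the genes that lost their call were at −0.67 (CD74), −0.58 (HLA-DRA), −0.48 (HLA-DMA), −0.47 (HLA-DQA1) and −0.45 (HLA-DRB1). It was also 3 (HLA-DQB1, HLA-DMA and HLA-DMB) without shSIRT3-1 replicate 1 or replicate 2, where CIITA was at −1.045 (adjusted p = 0.0833) and −0.98 (adjusted p = 0.0781) and CD74 at −0.92 (adjusted p = 0.104) and −0.90 (adjusted p = 0.0938).

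In HBL1, again all 10 genes had lower CPM with shSIRT3-2 than with shSIRT3-1 at each replicate number, as did 36.8% of all genes tested. HLA-DRA was 129, 132 and 192 CPM with shCtr, 241, 245 and 244 CPM with shSIRT3-1 and 127, 123 and 104 CPM with shSIRT3-2, without overlap of the 3 groups. CD74 was 500.5, 513 and 589 CPM, then 773, 799 and 766 CPM, then 411, 401 and 320.2 CPM, also without overlap. HLA-DPB1 was 11.4, 11.7 and 15.8 CPM, then 18.9, 19.7 and 24.1 CPM, then 7.68, 7.36 and 6.15 CPM. HLA-DMB was 23.4, 22.8 and 38.7 CPM with shCtr, 43.4, 40.6 and 41.0 CPM with shSIRT3-1 and 12.6, 14.8 and 12.2 CPM with shSIRT3-2. For both genes the controls lay between the hairpins with no overlap. HLA-DQA1 was 16.5, 16.1 and 21.6 CPM, then 22.3, 23.6 and 12.7 CPM, then 15.1, 14.1 and 10.7 CPM, and its shSIRT3-1 libraries overlapped both other groups.

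Against shCtr in HBL1, 4 genes were called higher with shSIRT3-1, where 8.83% of all genes were. They were HLA-DRA (0.71 ± 0.16, adjusted p = 0.00752), HLA-DPB1 (0.69 ± 0.16, adjusted p = 0.0107), HLA-DMB (0.60 ± 0.19, adjusted p = 0.0351) and HLA-DRB1 (0.60 ± 0.13, adjusted p = 0.00708). In the group-means fit none of these 4 was called, with adjusted p = 0.347, 0.104, 0.116 and 0.126 in the same order. CD74, at 0.55 ± 0.13 (adjusted p = 0.00914), had a fold of 1.46. CIITA was at 0.21 (95% interval −0.15 to 0.58). The median fold change of all genes in this comparison was −0.105 and moved to −0.005 with median-ratio scaling, so values relative to it are about 0.1 larger. The HLA-DMB and HLA-DRB1 calls were lost without shCtr replicate 1 or 2 or shSIRT3-1 replicate 1, which left 2 calls, and 6 were called without shCtr replicate 3. HLA-DPB1 was not called without shSIRT3-1 replicate 3 (0.58), and HLA-DMB also not without shSIRT3-1 replicate 2 (adjusted p = 0.06) or shSIRT3-2 replicate 1 (adjusted p = 0.055).

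With shSIRT3-2, 4 genes were called lower in HBL1, against 16% of all genes: CIITA (−1.15 ± 0.16, adjusted p = 0.00109), HLA-DMB (−1.05 ± 0.19, adjusted p = 0.00368), HLA-DPB1 (−0.86 ± 0.16, adjusted p = 0.00446) and HLA-DMA (−0.68 ± 0.15, adjusted p = 0.00832). HLA-DMA was not called without shCtr replicate 3 (−0.49) or in the group-means fit (adjusted p = 0.122). Between the hairpins, 8 of 10 were called lower with shSIRT3-2, against 13.1% of all genes, and 9 had libraries that did not overlap, against 26.8%. HLA-DMB (−1.66 ± 0.19, adjusted p = 0.000791), HLA-DPB1 (−1.55 ± 0.16, adjusted p = 0.00062) and CIITA (−1.36 ± 0.16, adjusted p = 0.000803) led, followed by CD74 (−1.05), HLA-DRA (−1.05), HLA-DRB1 (−0.85), HLA-DQB1 (−0.81) and HLA-DMA (−0.74). These calls use the spread of the HBL1 libraries alone. In the fit of all 9 groups, SEs between the controls of HBL1 and Karpas422 were larger for HLA-DRA and HLA-DMA. They were 0.603 and 0.343 without Karpas422 shSIRT3-2 replicate 3, and 0.295 and 0.324 without OCI-LY1 shSIRT3-1 replicate 1. In such a fit the SE of a gene is the same between any groups of 3 libraries, the HBL1 hairpin groups included. Which of the 8 calls hold in the group-means fit is not given here. HLA-DPA1 (−0.56, adjusted p = 0.0277) had a fold of 1.47. HLA-DQA1 was at −0.52 ± 0.25 (adjusted p = 0.122), and −0.80 (adjusted p = 0.00731) without shSIRT3-1 replicate 3.

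**Figure D2:**
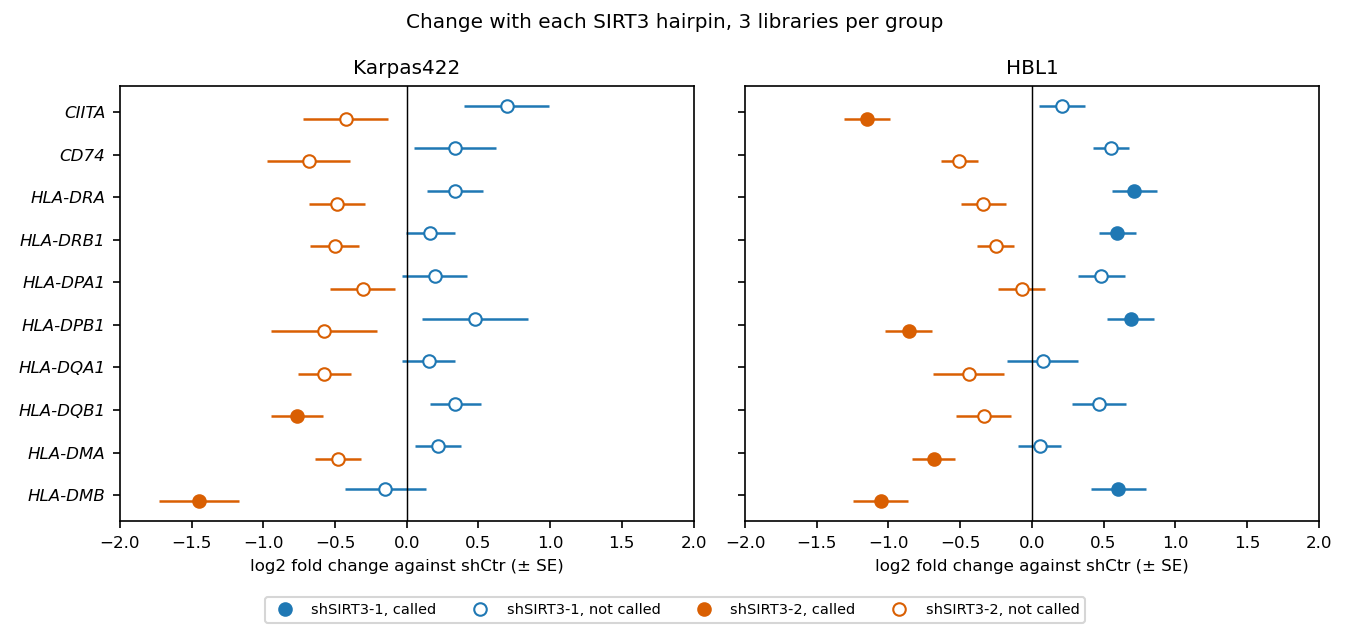
Log2 fold change of each gene against shCtr in Karpas422 and HBL1 with shSIRT3-1 (blue) and shSIRT3-2 (orange). Points are limma estimates from 3 libraries per group, bars are ± SE, and filled points were called. All 20 orange points lie below 0 and 19 of the 20 blue points above it, the exception being HLA-DMB in Karpas422 at −0.15. Without Karpas422 shSIRT3-2 replicate 3 the orange points of CIITA and HLA-DPA1 in that line lie at −0.05. HLA-DPA1 with shSIRT3-2 in HBL1 turns to 0.05 with median-ratio scaling, and CD74 with shSIRT3-1 in Karpas422 to −0.06 with quantile normalization.

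In OCI-LY1 only CIITA, CD74, HLA-DMA and HLA-DMB passed the filter and were tested. The data show a loss of HLA-DM with shSIRT3-2 that rests on few libraries. HLA-DMA was 8.27, 7.54 and 11.03 CPM with shCtr, 6.80, 1.72 and 6.24 CPM with shSIRT3-1 and 2.51, 1.01 and 2.21 CPM with shSIRT3-2. HLA-DMB was 2.01, 2.48 and 1.66 CPM, then 2.76, 1.53 and 2.53 CPM, then 0.940, 0.323 and 0.785 CPM. For both genes all shSIRT3-2 libraries lay below all controls. CD74 was 362, 250.4 and 274 CPM with shCtr, 331, 254 and 334 CPM with shSIRT3-1 and 309, 226 and 283 CPM with shSIRT3-2, so all groups overlapped.

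Of the 4 genes, none was called higher with shSIRT3-1 in OCI-LY1 (limma; 1 at an unadjusted p under 0.05, CIITA; edgeR and DESeq2 0), where 2.04% of all genes were. With shSIRT3-2, HLA-DMA (−2.24 ± 0.49, adjusted p = 0.0262) and HLA-DMB (−1.54 ± 0.35, adjusted p = 0.0291) were called lower, against 4.26% of all genes. Both calls were lost without shCtr replicate 2 or 3 or shSIRT3-2 replicate 2 or 3, with values of −2.39 to −1.86 for HLA-DMA and −1.68 to −1.15 for HLA-DMB. Between the hairpins HLA-DMB was called lower with shSIRT3-2 (−1.66 ± 0.35, adjusted p = 0.022), 1 of 4 against 2.49% of all genes. That call was lost without shSIRT3-1 replicate 1 or 3 or shSIRT3-2 replicate 3, and 2 genes were called without shSIRT3-1 replicate 2. CIITA differed by −0.98 ± 0.31 (adjusted p = 0.0877) and CD74 by −0.17 (95% interval −0.57 to 0.23). With the replicate block, HLA-DMA was also called, with adjusted p = 0.0483 for shSIRT3-1 against shCtr (−1.05) and 0.0351 between the hairpins (−1.19). CIITA and HLA-DMB, 2 of the 4, had libraries of the hairpins that did not overlap, against 20.9% of all genes. The 6 DR, DP and DQ genes together had 377, 45 and 48 reads with shSIRT3-1 and 24, 7 and 11 reads with shSIRT3-2, and the 377 reads were in the library with traces of HBL1-type transcripts.

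**Figure D3:**
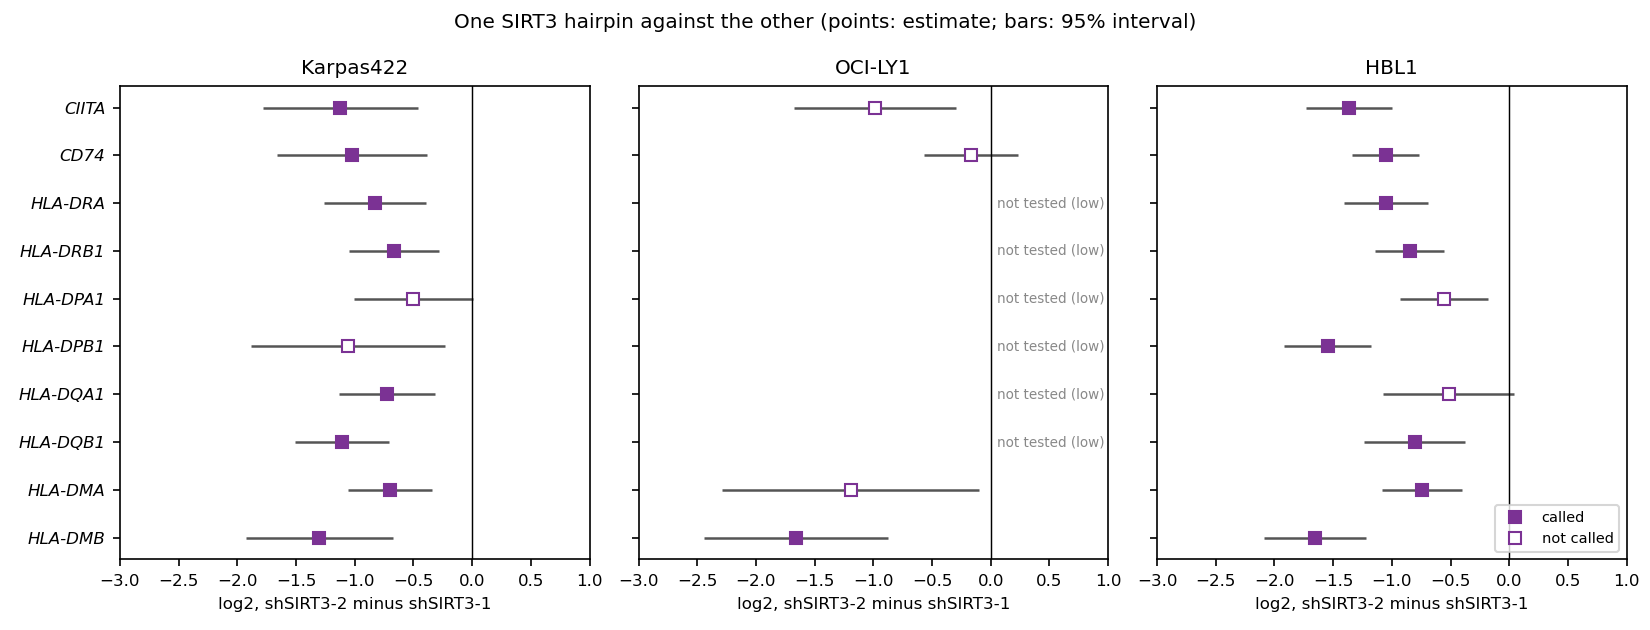
Log2 difference between the hairpins, shSIRT3-2 minus shSIRT3-1, for each gene in each line. Squares are limma estimates from 3 libraries per group, bars are 95% intervals, filled squares were called, and genes too low in OCI-LY1 were not tested. All 24 squares lie below 0, from −1.66 for HLA-DMB to −0.17 for CD74 in OCI-LY1.

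Whether the response differed between the lines was tested with an interaction term. It was called for 2 of the 10 genes, HLA-DMA (adjusted p = 0.0354) and HLA-DQA1 (adjusted p = 0.0054), against 41.8% of all genes. The log2 fold change of HLA-DMA with shSIRT3-2 was −2.24 in OCI-LY1, −0.68 in HBL1 and −0.48 in Karpas422, and that of HLA-DQA1 was not tested within OCI-LY1. CIITA (adjusted p = 0.371) and HLA-DMB (adjusted p = 0.538) were not called. In a fit of Karpas422 and HBL1 alone, none of the 10 was called (limma; 0 at an unadjusted p under 0.05 among them), where 29.8% of all genes were. With the replicate block CD74 was called too (adjusted p = 0.0221), which made 3 of 10 against 58.8% of all genes.

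The non-classical chains HLA-DOA and HLA-DOB, which form an inhibitor of HLA-DM in B cells, moved in the same direction between the hairpins. HLA-DOB was 50.6, 49.8 and 46.9 CPM in Karpas422 with shCtr, 44.3, 45.5 and 44.1 CPM with shSIRT3-1 and 23.9, 23.9 and 16.9 CPM with shSIRT3-2. Against shCtr it was called lower with shSIRT3-2 in Karpas422 (−1.20 ± 0.13, adjusted p = 0.00025), OCI-LY1 (−1.39 ± 0.26, adjusted p = 0.0176) and HBL1 (−2.81 ± 0.51, adjusted p = 0.00346). HLA-DOA fell with shSIRT3-2 by 0.74 (adjusted p = 0.00107) over the 3 lines. By line it was at −1.31 (adjusted p = 0.00188) in HBL1 and −0.35 (adjusted p = 0.088, not called) in Karpas422, and it was not tested within OCI-LY1. Its interaction with line had an adjusted p of 0.0983 over the 3 lines and 0.0152 in Karpas422 and HBL1 alone. Of 9 further class II genes in the files, 6 were tested over the 3 lines, and none was called with shSIRT3-1, 2 lower with shSIRT3-2 (against 10.2% of all genes) and 5 lower with shSIRT3-2 than with shSIRT3-1 (against 6.05%). HLA-DRB3 and HLA-DRB4 were listed at 0 in every library. Whether reads could be assigned to them on the hg19 reference was not tested, so this does not show that they were silent.

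Of the 7 factors of class II promoters, 6 had fold changes below 0 with each hairpin, all but NFYA, with medians of −0.393 for shSIRT3-1 and −0.211 for shSIRT3-2. Over the 3 lines none was called higher and 2 lower with shSIRT3-1 (against 9.09% of all genes lower), none higher and 1 lower with shSIRT3-2 (against 10.2%), and 1 higher and none lower with shSIRT3-2 than with shSIRT3-1 (against 5.27% higher), where the median was 0.224. RFX5, whose protein is the DNA-binding subunit of the RFX complex, was at −0.39 with shSIRT3-1, −0.45 with shSIRT3-2 and −0.05 ± 0.08 (SE) between them. RFXANK was at −0.28, −0.26 and 0.02. RFXAP fell by 0.72 with shSIRT3-1 (SE 0.15, adjusted p = 0.000396) and was at −0.17 with shSIRT3-2. Of the NF-Y subunits, NFYB fell by 0.68 with shSIRT3-1 (adjusted p = 8.17e-05) and was at −0.02 with shSIRT3-2, NFYC fell by 0.63 with shSIRT3-2 (adjusted p = 5.74e-05), and NFYA was at 0.25 and 0.47. CREB1 was at −0.56 and −0.21. The interaction with line was called for RFX5 (adjusted p = 0.0255), RFXAP (0.00537), NFYA (0.00564), NFYB (0.00713) and NFYC (7.29e-05), against 41.8% of all genes. It was not called for RFXANK (0.0756) and CREB1 (0.219). With shSIRT3-1 the median of the 7 was −0.593 in Karpas422, −0.584 in HBL1 and −0.183 in OCI-LY1. None of the 7 was called in OCI-LY1 with either hairpin.

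NLRC5, a relative of CIITA that drives MHC class I genes, rose with shSIRT3-1. It was 49.98, 35.05 and 23.9 CPM in Karpas422 with shCtr, 62.0, 61.8 and 95.7 CPM with shSIRT3-1 and 46.9, 43.9 and 33.0 CPM with shSIRT3-2. Its shSIRT3-1 libraries lay above all others. It was called higher with shSIRT3-1 in Karpas422 (1.04 ± 0.26, adjusted p = 0.0144), OCI-LY1 (1.05 ± 0.21, adjusted p = 0.0234, or 0.0567 without shSIRT3-1 replicate 1) and HBL1 (0.68 ± 0.17, adjusted p = 0.0129), and over the 3 lines it was lower with shSIRT3-2 than with shSIRT3-1 by 0.88 (SE 0.13, adjusted p = 2.26e-05). Of 12 class I genes described here, HLA-B, HLA-C and B2M among them, none was called over the 3 lines with either hairpin or between them, and their medians were −0.022, −0.052 and −0.034. The lines differed in direction: in Karpas422 11 of 12 were above 0 with shSIRT3-1 (3 called higher, against 4.45% of all genes, median 0.321) and all 12 with shSIRT3-2 (4 called higher, against 5.55%, median 0.413). In HBL1 all 11 tested were below 0 with shSIRT3-1 (1 called lower, against 18.8% of all genes, median −0.440), and in OCI-LY1 10 of 11 were below 0 with shSIRT3-2 (1 called lower, against 4.26%, median −0.357). Between the hairpins, 10 of 11 were below 0 in OCI-LY1 (2 called lower, against 2.49% of all genes, median −0.398). In HBL1 9 of 11 were above 0 (1 called higher, against 14.9%, median 0.226), and in Karpas422 9 of 12 were (none called, median 0.142). The difference between the lines was not tested for this list.

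Of 12 factors upstream of CIITA, SOCS1, an inhibitor of cytokine signaling, was higher with shSIRT3-1 (1.22 ± 0.27, adjusted p = 0.000875) and lower with shSIRT3-2 than with shSIRT3-1 (−1.56 ± 0.27, adjusted p = 9.79e-05). BCL6, the germinal center repressor, fell by 0.87 with shSIRT3-2 (SE 0.11, adjusted p = 1.33e-06). PRDM1 was called higher with shSIRT3-2 (1.87 ± 0.59, adjusted p = 0.0142), and at 1.31 (adjusted p = 0.0206) without Karpas422 shSIRT3-2 replicate 3. No other factor of the list was called over the 3 lines. Of all genes, 3.92% were called higher with shSIRT3-1, 3.29% higher and 10.2% lower with shSIRT3-2, and 6.05% lower between the hairpins. In HBL1 alone, 5 of the 11 tested were called lower with each hairpin, against 18.8% and 16% of all genes. There 1 was called higher with shSIRT3-1, against 8.83%. In Karpas422 alone, 4 of 10 were called lower and 1 higher with shSIRT3-2, against 9.44% and 5.55%. The interaction with line was called for SOCS1, BCL6 and PRDM1, with adjusted p = 0.00332, 0.0253 and 0.00217. BCL6 with shSIRT3-2 was at −1.32 in HBL1, −0.76 in Karpas422 and −0.52 (adjusted p = 0.0782, not called) in OCI-LY1, and SOCS1 was not tested within HBL1. Between the hairpins SOCS1 was at −2.82 (adjusted p = 0.00137) in Karpas422 and −0.60 (adjusted p = 0.128, not called) in OCI-LY1. With shSIRT3-2 it was at −1.14 (adjusted p = 0.0275) in Karpas422, or −0.75 (adjusted p = 0.0534, not called) without replicate 3 of that group. In OCI-LY1 it was at 0.72 with shSIRT3-2 (adjusted p = 0.0646, not called). PRDM1 in Karpas422 was 0.216, 0.152 and 0.427 CPM with shCtr, 0.279, 0.421 and 3.13 CPM with shSIRT3-1 and 5.70, 4.12 and 46.9 CPM with shSIRT3-2. The shSIRT3-2 libraries were the highest of that line. The single library with the highest PRDM1 was the one with the lowest level of each of the 10 class II genes in that line, and a link was not tested. In HBL1 PRDM1 was 7.09, 6.65 and 3.43 CPM, then 8.70, 9.85 and 8.69 CPM, then 6.33, 6.29 and 6.80 CPM, so there it was not higher with shSIRT3-2 than with shSIRT3-1. In OCI-LY1 it was at most 0.144 CPM.

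**Figure D4:**
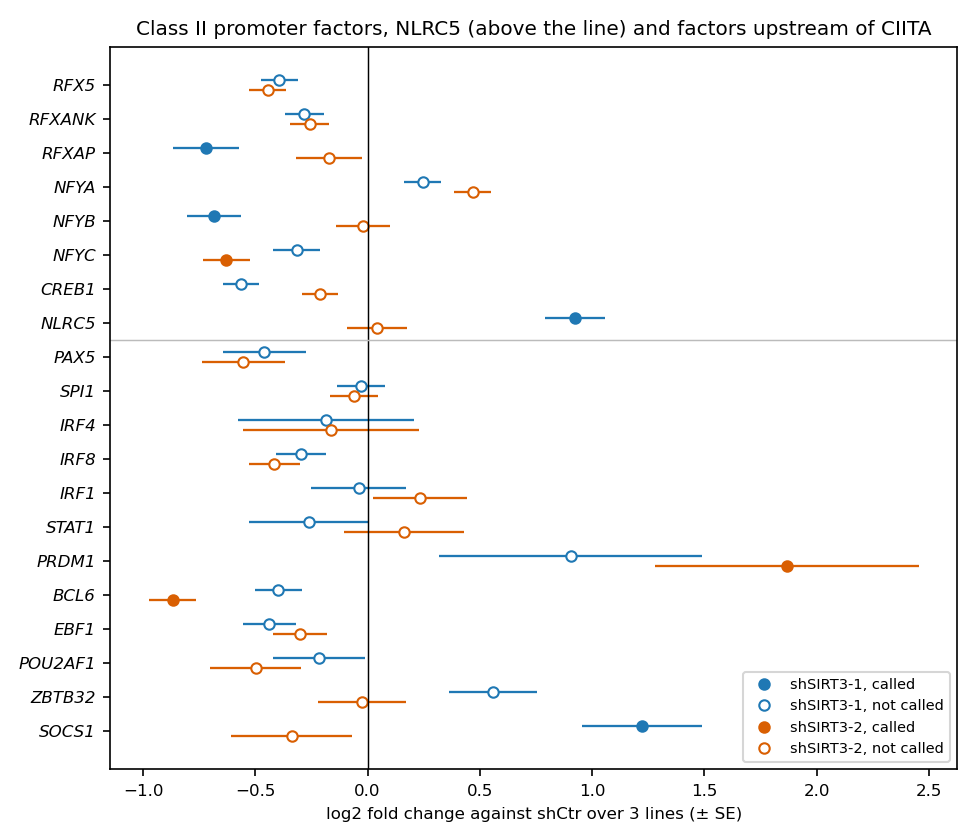
Log2 fold change against shCtr over the 3 lines for 7 factors of class II promoters and NLRC5 (above the grey line) and 12 factors upstream of CIITA (below it), with shSIRT3-1 in blue and shSIRT3-2 in orange. Points are limma estimates, bars are ± SE, and filled points were called. NLRC5 at 0.92 and SOCS1 at 1.22 stand out in blue, and PRDM1 at 1.87 and BCL6 at −0.87 in orange.

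Of 8 tested genes of interferon-γ signaling, the main inducer of CIITA outside B cells, none was called with shSIRT3-1, 1 lower with shSIRT3-2 (against 10.2% of all genes) and none between the hairpins, where the median was 0.182. In HBL1 alone, 3 of the 8 were called lower and 1 higher with shSIRT3-1 (median −0.670), against 18.8% and 8.83% of all genes, and 3 were called higher with shSIRT3-2 than with shSIRT3-1 (median 0.751), against 14.9%. Of 12 tested genes of class II peptide processing and turnover, 2 were called higher with shSIRT3-1 (against 3.92% of all genes), and 2 higher and 1 lower with shSIRT3-2 (against 3.29% and 10.2%). IFI30, the thiol reductase of endosomes, was called higher with both hairpins (0.81 ± 0.18, adjusted p = 0.000803, and 0.83 ± 0.18, adjusted p = 0.000644), and within a line in HBL1 alone (0.955 and 1.34). Of 5 B-cell markers, 2 (CD22 and MS4A1) were called lower with shSIRT3-2 than with shSIRT3-1, against 6.05% of all genes, and 3 were not called. The median was −0.365. CD22, a B-cell surface lectin, was 441, 527 and 200 CPM in Karpas422 with shCtr, 513, 455 and 311 CPM with shSIRT3-1 and 102, 88.0 and 9.26 CPM with shSIRT3-2. Over the 3 lines it differed between the hairpins by −2.17 ± 0.41 (SE, adjusted p = 0.000295), and by −1.78 (adjusted p = 0.000125) without Karpas422 shSIRT3-2 replicate 3. In OCI-LY1 the difference was −0.35 (adjusted p = 0.204, not called). The summed level of the 5 markers was 756 to 1174 CPM with shSIRT3-2 (1152 and 1174 CPM without replicate 3) and 1472 to 2056 CPM with shSIRT3-1 in Karpas422, 1264 to 1317 CPM and 1810.1 to 1873 CPM in HBL1, and 1506 to 1662 CPM and 1755 to 1999.7 CPM in OCI-LY1. Of 5 plasma cell genes, TNFRSF17 (−1.62 and −1.33), XBP1 (−0.83 and −1.01) and MZB1 (−0.66 and −0.77) were called lower with both hairpins over the 3 lines. Of all genes, 9.09% were called lower with shSIRT3-1 and 10.2% with shSIRT3-2. The other 2 were called higher with shSIRT3-2, against 3.29% of all genes. SDC1, the plasma cell surface proteoglycan, was 1 of them (1.15 ± 0.35, adjusted p = 0.0113). In OCI-LY1 TNFRSF17 (0.22 and −0.20) and XBP1 (−0.21 and −0.10) were not called, and their interaction with line was (adjusted p = 0.00373 and 0.00253). SDC1, tested within Karpas422 alone (1.40 with shSIRT3-2), also had a called interaction (adjusted p = 0.000456). Of the T-cell and myeloid markers, 2 each were tested. With shSIRT3-2 1 myeloid marker was called higher and 1 lower, against 3.29% and 10.2% of all genes. The part of these shifts in the class II results was not tested, and in bulk RNA fewer cells of a kind and less RNA per cell cannot be told apart.

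The genes whose pattern was most like that of CIITA were UXT, PGAM2 and DNAJB13, with Pearson r of 0.851, 0.836 and 0.829 over the 27 libraries after the mean of each line was subtracted. For HLA-DRA they were HLA-DPA1 (0.965), HLA-DRB1 (0.936) and SEMA3C (0.897). Without OCI-LY1 shSIRT3-1 replicate 1 these values were 0.92, 0.855 and 0.687, and those for CIITA were 0.854, 0.834 and 0.828. These libraries share depth and replicate numbers, and the values are descriptions.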

How the data were processed

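Total RNA was sequenced in 27 libraries of 3 DLBCL lines. Reads were aligned to hg19, with STAR per the labels, and assigned to RefSeq genes by the authors. The deposited values are named FPKM in the labels, but they are CPM: in each library 100% of values were whole multiples of 1 step within 0.001 read. The step was used to recover reads. The authors divided by a total of which genes hold 40.3% to 45.6%, and 28694398 to 53405456 reads per library fell on genes (median 45669254).

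Genes at 1 CPM or more in 3 or more libraries were tested on log2(CPM + 0.1) with limma 3.58.1 (trended variance, R 4.3.3), over the 3 lines with line and shRNA as terms (13076 genes), within each line, and with an interaction term, whose call used the adjusted p alone. Fold changes on this scale understate those of low genes. ± is SE for fold changes and SD for levels. Controls of the lines were compared in a fit of all 9 groups. No P value was computed for a list. The genes described and the other lists were chosen with earlier results of these data known. Named genes were the 10, SIRT3, the promoter regulators and, from each other list, up to 3 called in one direction with both hairpins. NLRC5 was among the regulators, and HLA-DOA, HLA-DOB, SOCS1, BCL6, PRDM1, SDC1 and CD22 were singled out after their values were seen. One gene each of the B-cell and class I lists is not reported here and was left out of their counts and sums. The models were tested on simulated data first.

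Alternatives were pseudocounts of 1 and 0.01, no filter, quantile normalization, median-ratio scaling, no variance trend, edgeR 4.0.16 and DESeq2 1.42.0 on the recovered reads, a group-means fit, the replicate number as a block, and leaving out each library, number and line. A fit of Karpas422 and HBL1 alone, and the values of other named genes and of pattern likeness without the libraries that stand apart, were added after the data were seen. Deviations of same-numbered libraries from their group means correlated above 0.1 in every pair (0.11 to 0.56) in all comparisons but shSIRT3-2 against shCtr in Karpas422 (0.01 to 0.31) and over the 3 lines (0.01 to 0.47). The numbers were therefore taken to pair the libraries in the other comparisons, from the data and not from the labels. The main fits did not use this pairing, which entered the models only through the replicate block. Promoter windows came from RefSeq (GRCh38.p14), searched with Python 3.11.15, and gene positions from GENCODE on hg19.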

Additional observations from a re-analysis of the deposited data

Results flagged for a closer look

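HLA-DMA (adjusted p = 0.0354) and HLA-DQA1 (adjusted p = 0.0054) passed limma's test for a difference between the cell lines in the response to the hairpins, as did 41.8% of all genes tested, so 2 of 10 is a smaller share than among all genes. Leaving out a whole replicate number left 0 or 1 of the 10. For HLA-DMA the log2 fold change with shSIRT3-2 was −2.24 in OCI-LY1, −0.68 in HBL1 and −0.48 in Karpas422. For HLA-DQA1 the result rests on levels of 0.0103 to 0.372 CPM in OCI-LY1, around the 0.1 CPM added before taking logs. All shSIRT3-1 libraries lay above the controls there, but the gene did not pass the filter in that line. These levels therefore do not decide whether its response differed between the lines. In Karpas422 and HBL1 alone the adjusted p was 0.718 for HLA-DMA and 0.842 for HLA-DQA1.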

How the results depend on the processing

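Of 3978 values of single class II genes under alternatives, 3719 kept their direction and their side of the threshold, 95 became called, 137 lost a call and 27 changed sign, none of which had been called. Between the hairpins over the 3 lines every class II gene stayed below 0 in all alternatives run, with 6 (without HBL1) to 10 of them called. The cause of the changes listed next was not tested. The labels do not state what a replicate number marks, 1 line stands for each type, and leaving out a whole replicate number leaves few residual degrees of freedom. In OCI-LY1 the DR, DP and DQ genes together had at most 377 reads a library at a depth like that of Karpas422, and they did not pass the filter for the test within that line.

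With the replicate block, calls changed only for CIITA and HLA-DPB1 in Karpas422 and HLA-DMA in OCI-LY1, given beside those results, for CD74 with shSIRT3-2 in Karpas422 (adjusted p = 0.0329), where the numbers did not pair the libraries, and in the interaction test. It gave 1 class II gene higher with shSIRT3-1 in Karpas422 and, in OCI-LY1, 1 lower with shSIRT3-1 and 2 lower between the hairpins.

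Over the 3 lines, class II genes called higher with shSIRT3-1 numbered 1, and 0 with pseudocount 1, 2 with pseudocount 0.01, 3 with quantile normalization, 2 with median-ratio scaling, 2 with edgeR, 4 with DESeq2, 3 without Karpas422, 0 without OCI-LY1 and 3 without HBL1. Among all genes, calls with shSIRT3-1 numbered 1701, and 1054 with pseudocount 1 and 1073 without HBL1. Calls with shSIRT3-2 numbered 1760, and 1036 with pseudocount 1. Calls between the hairpins numbered 1480, and 862 with pseudocount 1 and 862 without HBL1. The interaction was called for 2 class II genes, 3 with pseudocount 1, 1 with no filter, 1 with quantile normalization and 0 in Karpas422 and HBL1 alone. In Karpas422, DESeq2 called 1 gene higher with shSIRT3-1, and quantile normalization called 4 lower with shSIRT3-2 instead of 2. In OCI-LY1, all-gene calls were 504 with shSIRT3-1 (862 with DESeq2, 790 with the group-means fit), 718 with shSIRT3-2 (1132 and 1082) and 524 between the hairpins (788 with DESeq2). Class II genes there called higher with shSIRT3-1 were 0, 1 with no filter and 2 with the group-means fit, those lower with shSIRT3-2 were 2, and 1 with no filter. Those lower between the hairpins were 1, and 2 with no filter, 3 with DESeq2 and 6 with the group-means fit. The group-means fit and the fit with no filter also test DR, DP and DQ genes that are near 0 in OCI-LY1. Both genes the group-means fit called with shSIRT3-1 were of that kind (HLA-DQA1 and HLA-DQB1), as were 3 of its 6 between the hairpins. These calls do not decide the response of that line. In HBL1 the group-means fit called 0 of the 4 higher with shSIRT3-1. Signs changed for HLA-DMA (0.137 without OCI-LY1) and HLA-DMB (−0.015 without HBL1) with shSIRT3-1 over the 3 lines, CD74 with shSIRT3-1 in Karpas422 (−0.059, quantile normalization) and HLA-DPA1 with shSIRT3-2 in HBL1 (0.047, median-ratio scaling).

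Leaving out libraries or replicate numbers gave these ranges of log2 fold change: in OCI-LY1, CD74 −0.055 to 0.215 with shSIRT3-1 and −0.218 to 0.047 with shSIRT3-2, CIITA −0.676 to 0.091 with shSIRT3-2 and HLA-DMB −0.11 to 0.508 with shSIRT3-1, and in HBL1, HLA-DMA −0.068 to 0.295 and HLA-DQA1 −0.163 to 0.488 with shSIRT3-1 and HLA-DPA1 −0.228 to 0.183 with shSIRT3-2. All-gene calls ranged from 348 to 4709 for the interaction and from 985 to 1962 with shSIRT3-2 over the 3 lines. With shSIRT3-1, with shSIRT3-2 and between the hairpins they ranged from 506 to 3690, 334 to 3364 and 37 to 3791 in HBL1, from 761 to 1894, 579 to 1862 and 50 to 1303 in Karpas422, and from 0 to 1133, 0 to 1321 and 5 to 600 in OCI-LY1. Class II genes called ranged from 0 to 1 for the interaction. Those higher with shSIRT3-1 ranged from 0 to 5 over the 3 lines, 0 to 7 in HBL1 and 0 to 2 in Karpas422. Those lower with shSIRT3-2 ranged from 1 to 4 in HBL1, 0 to 5 in Karpas422 and 0 to 2 in OCI-LY1, and those lower between the hairpins from 0 to 10, 0 to 9 and 0 to 2.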
